A study of Mus musculus with 1203 samples.

Results

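The transcripts of the mitochondrial genome were followed in single cells of the mouse colon. They were taken as all rows of the expression table whose gene symbol begins with mt-, which gave 37 of 46609 rows: 13 mRNAs, 2 ribosomal RNAs and 22 transfer RNAs. The wells held EPCAM+ colon cells of female mice aged 11 weeks, sorted one at a time into plates, and were labelled by genotype and as tuft or epithelial. Tuft cells are rare chemosensory cells of the gut lining, and SIGLEC-F was the surface protein used to sort them; the gate of the wells labelled epithelial was not stated. RNA was copied from an oligo-dT primer by a modified Smart-seq2 protocol, a plate method for full-length cDNA. The mice were labelled VillinCre;IPMKf/f, in which Cre under the Villin promoter acts on floxed Ipmk (inositol polyphosphate multikinase) in intestinal epithelium, or wt. Cre-only and floxed-only controls were not analysed here.

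Of 1203 wells, 856 had at least 1000 genes above 0 TPM and were kept. Those labelled VillinCre;IPMKf/f were 300 tuft and 51 epithelial wells from plate sets 2, 4, 5 and 7, and those labelled wt came from plate sets 1, 3 and 6, with 39 epithelial wells and the others labelled tuft. No plate set held both genotypes, so genotype and plate set cannot be told apart. No label names an animal, so each genotype is 1 sample, no test of the conditions could be made and no p-value is given. Cells were averaged within each plate set. An SD given below is the spread of those averages, part of which may be technical.

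Cells were also split by 3 nuclear genes. Cells called marker-positive tuft cells below had Trpm5, the cation channel of taste-type signalling, at 50 TPM or more and Dclk1, a tuft cell kinase, at 100 TPM or more. The Krt20 class had Krt20, a keratin of mature surface colonocytes, at 20 TPM or more. This gave 480 marker-positive tuft cells, of which 52, 69, 54 and 9 came from VillinCre;IPMKf/f plate sets 2, 4, 5 and 7 and the others from the wt plate sets. The Krt20 class held 71 VillinCre;IPMKf/f cells and 63 wt cells, and 6 cells that met both rules were set apart. All other kept cells are called the rest, 93 of them labelled VillinCre;IPMKf/f. The classes did not follow the labels exactly: 19 marker-positive tuft cells carried the epithelial label and 100 cells of the Krt20 class carried the tuft label. All 14 tuft markers were above 0 in at least 25% of marker-positive tuft cells and none were in the Krt20 class, while the 10 colonocyte markers showed the reverse. Trpm5, Dclk1 and Krt20 stand on these lists. That Trpm5 and Dclk1 were above 0 in marker-positive tuft cells, and Krt20 in the Krt20 class, is fixed by the rule. The rule also limits, without fixing at 0, Krt20 in marker-positive tuft cells and the pair of Trpm5 and Dclk1 in the Krt20 class. Enteroendocrine and eosinophil markers were at 0 in both classes. Summed goblet markers lay between 3.35 and 21.5 TPM in the plate sets of marker-positive tuft cells and between 4.48 and 7769 TPM in those of the Krt20 class, and in those of the rest between 45.4 and 3689 TPM, and summed leukocyte markers reached 3003 TPM in the rest. Their part in the results was not tested.

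The mitochondrial genome is a small circle carried in many copies per cell. Its strands are transcribed as long precursors, from which excision of the tRNAs releases the ribosomal RNAs and the mRNAs. The mRNAs encode core subunits of respiratory complexes I (mt-Nd genes), III (mt-Cytb) and IV (mt-Co genes) and of the ATP synthase (mt-Atp genes), which are completed by subunits encoded in the nucleus. Most genes lie on 1 strand, and neighbours there share a precursor. Colonocytes are known for a high oxidative metabolism fuelled by butyrate.

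Much of the mitochondrial mRNA signal in this table stood on nuclear rows. A stretch of mitochondrial DNA is inserted in mouse chromosome 1 (chr1:24611535-24616197, minus strand, build GRCm38), and GENCODE annotates 7 pseudogenes in it. Each matched part of a mitochondrial mRNA almost letter for letter. Gm28661 (mt-Co2), Gm10925 (mt-Atp6), Gm28437 (mt-Co3), Gm10222 (mt-Nd4l) and Gm28439 (the first 876 bases of mt-Nd4) were 100% identical over their match. Gm29216 matched mt-Co1 from position 1063 to its 3′ end, and Gm28438 matched mt-Nd3 up to its last 3 bases, with 1 mismatch each. The sequences below are shown because they hold the few letters that separate the rows. They are read 5′ to 3′ from the transcripts, and positions count from 1 at the first base of the mitochondrial gene.
mt-Co1 (chrM:6381-6418, plus strand): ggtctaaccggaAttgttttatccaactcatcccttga
Gm29216 (chr1:24616160-24616197, minus strand): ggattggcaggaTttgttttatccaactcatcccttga
mt-Nd3 (chrM:9459-9486, plus strand): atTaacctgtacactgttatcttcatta
Gm28438 (chr1:24613092-24613119, minus strand): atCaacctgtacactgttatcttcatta
mt-Co2 (chrM:7646-7696, plus strand): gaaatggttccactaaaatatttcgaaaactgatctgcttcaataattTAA
Gm28661 (chr1:24614885-24614932, minus strand): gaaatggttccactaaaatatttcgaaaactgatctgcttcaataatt
The capitals mark A1066T between mt-Co1 and Gm29216, T3C between mt-Nd3 and Gm28438, and the last 3 bases of mt-Co2, which lie past the end of Gm28661. Several, but not all, of the letters of Gm29216 before the start of its match differ from the mitochondrial gene.

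The rows were filled very unevenly. The mt-Co2 row was above 0 in 38 of the 856 cells, and in 9 of those the Gm28661 row was above 0 too, whereas 766 cells had only Gm28661. The mt-Co3 row was above 0 in 20.4% of cells and its copy row in 97.4%, and the mt-Nd3 row in 2.10% against 48.8% for Gm28438. For mt-Atp6 the shares were 53.97% and 94.4%. Weighted by length, the mitochondrial row held 6.50% of the joint signal of mt-Co2 and Gm28661, 4.98% for mt-Co3, 5.24% for mt-Nd3, 2.33% for mt-Nd4l and 31.8% for mt-Atp6. It held 72.0% for mt-Co1, whose copy covers only its 3′ part, and 97.9% for mt-Nd4. Across the 856 cells, the Spearman correlation with mt-Nd1, which has no such copy, was 0.13 for the mt-Co2 row, 0.59 for Gm28661 and 0.66 for their joint level. The copy row also had the higher correlation for mt-Atp6, mt-Co3, mt-Nd3 and mt-Nd4l. The reverse held for mt-Nd4 (0.75 on its row, -0.02 for Gm28439) and mt-Co1 (0.55 on its row, 0.44 for Gm29216). These are descriptions across cells that share plates and depth. The other copies searched for, Gm13340 and Gm13341 on chromosome 2 and Gm28667 on chromosome 7, were not joined to any gene. A joint level, the length-weighted sum of both rows divided by the length of the mitochondrial gene, is therefore given below for these 7 mRNAs wherever it is named as joint. It was introduced after the values were seen. Whether any signal comes from the nuclear insertion itself was not tested.

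**Figure D1:**
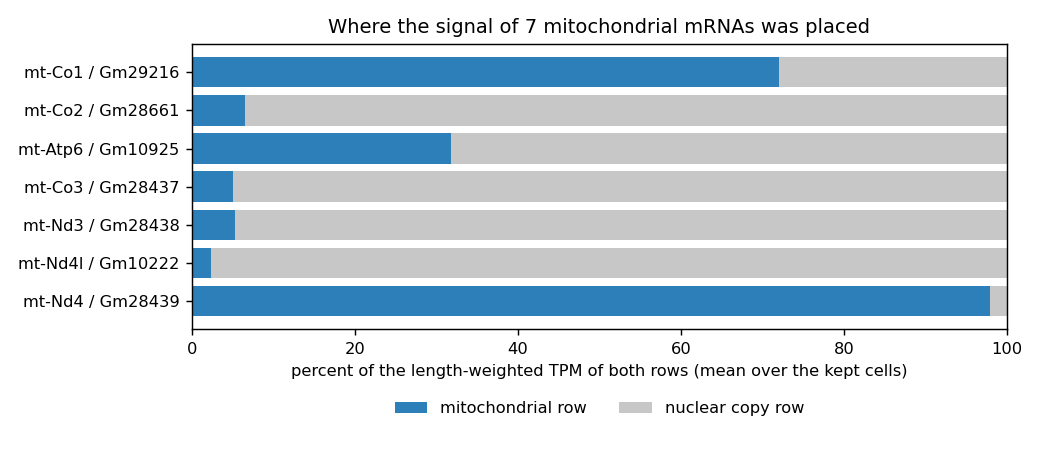
Share of the length-weighted TPM of each pair that stood on the mitochondrial row (blue) and on the nuclear copy row (grey), in percent of the pair, from mean TPM over 856 cells. The mt-Nd4 and mt-Co1 bars are mostly blue (97.9% and 72.0%), and the bars of the other 5 mRNAs are mostly grey.

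Within the mitochondrial rows, ribosomal RNA made up most of the signal. mt-Rnr2, the 16S ribosomal RNA of the large mitochondrial ribosome subunit (chrM:1094-2675, plus strand), held 88.003% of mitochondrial TPM on average over the 7 plate sets, with plate sets between 86.4% and 89.7%. mt-Rnr1, the 12S ribosomal RNA of the small subunit (chrM:70-1024, plus strand), held 2.38%, and its level in this oligo-dT-primed table was far below that of mt-Rnr2, its neighbour on the same strand. mt-Rnr2 holds 4 runs of at least 6 A, the longest of 7, and mt-Rnr1 holds 0, its longest run being 5. Whether these runs bear on the levels was not tested. Among mRNA rows, mt-Co1 (the catalytic core of complex IV) held 3.17%, mt-Atp6 (a proton channel subunit of ATP synthase) 1.91%, mt-Nd1 1.40%, mt-Cytb 1.04%, mt-Nd4 0.65%, mt-Nd5 0.44% and mt-Nd2 0.24%. The complex I subunits mt-Nd1, mt-Nd4 and mt-Nd5 and the complex III subunit mt-Cytb were each above 0 in at least 98.01% of cells, and mt-Nd2, also of complex I, in 83.9%.

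With the copies joined, mt-Atp6 was the most abundant mRNA at 2548 TPM (mean of 7 plate sets, 1813 to 3910 TPM), followed by mt-Co1 at 1783 TPM (1262 to 2606 TPM) and mt-Co3 at 928 TPM (759 to 1306 TPM). The joint levels of mt-Co2 (610 TPM) and mt-Nd3 (536.3 TPM) and the level of mt-Nd1 (561.2 TPM) had overlapping plate-set ranges, so their order is not resolved. mt-Cytb stood at 415.8 TPM, mt-Nd4 at 270 TPM and mt-Nd5 at 175.2 TPM. These levels are per length, as TPM is.

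The tRNAs and the short or minus-strand mRNAs were barely seen. All 22 tRNA rows, 59 to 75 bases long, were at 0 in every well. mt-Nd6, the only mRNA read from the minus strand (chrM:13552-14070), was above 0 in 25.2% of cells and averaged 23.7 TPM. mt-Nd4l was above 0 on its own row in 2 cells. mt-Atp8 (chrM:7766-7969) is the shortest of the mRNAs, shares 43 bases with mt-Atp6 and was above 0 in 20 cells, in which it ran from 1617 to 25104 TPM with a median of 5349 TPM. Its mean of 197.4 TPM thus rests on 20 cells. It enters the counts and sums below, but its own difference is not described.

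Marker-positive tuft cells had a smaller mitochondrial share of TPM than Krt20 cells. In marker-positive tuft cells the mitochondrial rows took 3.03%, 2.14%, 2.39% and 2.73% of TPM in VillinCre;IPMKf/f plate sets 2, 4, 5 and 7 and 2.20%, 2.10% and 3.24% in wt plate sets 1, 3 and 6. In the Krt20 class they took 12.8%, 6.79%, 6.54% and 4.76% in the VillinCre;IPMKf/f plate sets and 10.9%, 14.6% and 9.28% in the wt ones. All 7 Krt20 values lay above all 7 tuft values, and only plate set 7, with 9 marker-positive tuft cells and 12 Krt20 cells, came near. The mean was 2.55% ± 0.46 in marker-positive tuft cells and 9.39% ± 3.60 in the Krt20 class (SD, n = 7 plate sets). Within plate sets the log2 ratio of tuft over Krt20 was -1.80 ± 0.65, a 3.49-fold higher share in the Krt20 class, with the same sign in 7 of 7 plate sets. The rest lay at 8.38%, 2.03%, 3.15% and 2.82% in the VillinCre;IPMKf/f plate sets and at 3.42%, 4.57% and 4.9998% in the wt ones.

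**Figure D2:**
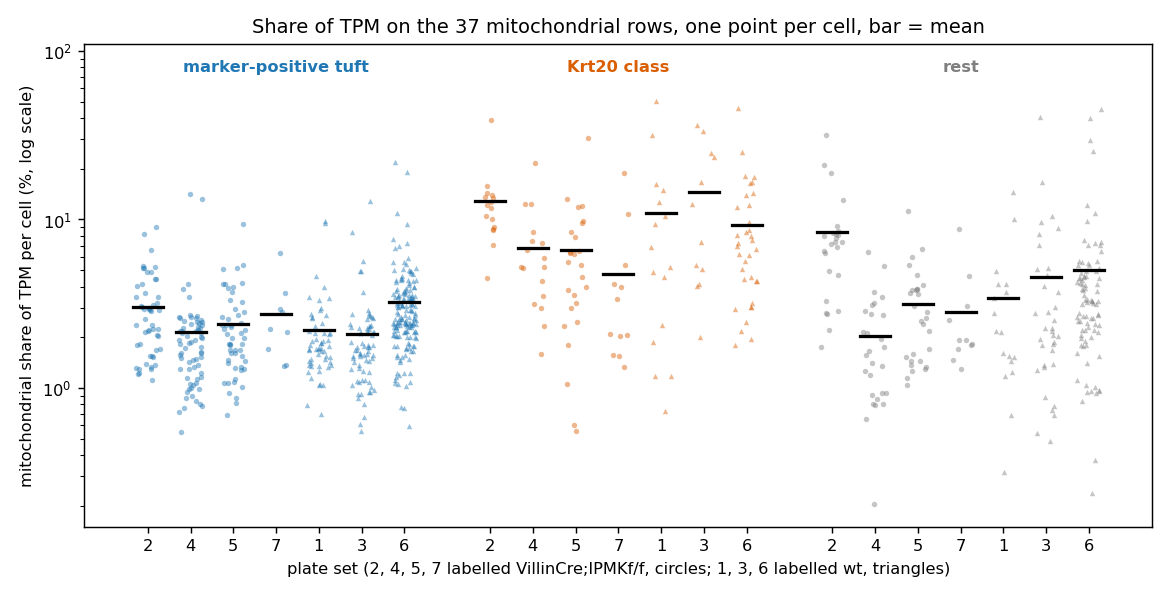
Mitochondrial share of TPM (percent, log scale) of each kept cell by class and plate set, with VillinCre;IPMKf/f plate sets (circles) left of wt plate sets (triangles) and a bar at the mean. The plate-set means of marker-positive tuft cells lie between 2.10% and 3.24%, below all means of the Krt20 class, which lie between 4.76% and 14.6%.

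The Krt20 class also had the long upper tail. A share above 10% was seen in 6 of 480 marker-positive tuft cells (1.25%, exact Clopper-Pearson 95% interval 0.46% to 2.70%), against 42 Krt20 cells (31.3%, 23.6% to 39.9%) and 16 cells of the rest (6.78%). The intervals cover the counting of cells only and not the spread between plate sets. By plate set, the share of such cells ran from 0% to 2.90% in marker-positive tuft cells and from 15.4% to 68.75% in the Krt20 class. The highest share was 21.9% among marker-positive tuft cells and 50.4% in the Krt20 class. The class medians of 2.19% in marker-positive tuft cells and 6.46% in Krt20 cells show that the difference was not carried by the tail alone.

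A share of TPM depends on everything else in the well. The 18S ribosomal RNA row Rn18s-rs5 took 76.5% to 80.3% of TPM in the plate sets of marker-positive tuft cells and 59.2% to 75.8% in those of the Krt20 class. Taken as a share of TPM without that row, the mitochondrial rows made up 9.10% to 15.8% in marker-positive tuft cells and 16.6% to 34.6% in the Krt20 class, a log2 ratio of -1.07 ± 0.47 that was negative in 7 of 7 plate sets. Genes detected per cell did not separate the classes: the plate-set medians were 2147 to 2882 in marker-positive tuft cells and 1760.5 to 3114 in the Krt20 class. In cells with 1000 to under 2000, 2000 to under 3000 and at least 3000 genes, the mean share was 2.45%, 2.50% and 2.95% in marker-positive tuft cells and 10.8%, 8.86% and 7.31% in the Krt20 class.

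The labels gave a smaller difference than the classes, with a mean log2 ratio of -0.43 for tuft over epithelial. On the first plate of each set, which holds both labels, wells labelled tuft averaged 4.83%, 2.44%, 2.33% and 3.48% in VillinCre;IPMKf/f plate sets 2, 4, 5 and 7, against 11.8%, 1.70%, 3.55% and 3.64% in wells labelled epithelial. In wt plate sets 1, 3 and 6 the tuft label averaged 3.73%, 4.13% and 4.24%, against 6.84%, 5.65% and 5.02% for the epithelial label. The share was lower under the tuft label in 6 of 7 plate sets, and plate set 4 went the other way.

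The class difference was not shared equally by the genes of the circle. At joint level the ribosomal RNAs, the 3 complex IV mRNAs and mt-Atp6 were lower in marker-positive tuft cells, mt-Nd1, mt-Nd4, mt-Nd5 and mt-Cytb differed little, and mt-Nd2 was higher. On the table's rows as deposited, 14 of the 15 mRNAs and rRNAs reached 10 TPM in a class. By the rule of size (at least 1.5-fold on mean TPM + 1 and the same sign in all 7 plate sets), 4 were lower in tuft cells (mt-Co1, mt-Atp6, mt-Rnr1 and mt-Rnr2) and 1 was higher (mt-Nd2). Among all 2768 genes tested, 23.6% were lower and 18.3% higher by this rule, and their median log2 ratio was -0.02 against 0.03 for the 14 members. The members' share of lower calls was thus near that of all genes. Without Rn18s-rs5 in the total, 2 members were lower (mt-Co1 and mt-Rnr2) and 5 higher (mt-Nd1, mt-Nd2, mt-Nd4, mt-Nd5 and mt-Cytb), where 10.8% of all genes were lower and 24.2% higher. With joint levels and Rn18s-rs5 kept, mt-Co2 and mt-Co3 also met the rule as lower, making 6, where 23.7% of all genes were lower.

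mt-Co1 and mt-Rnr2 differed by like amounts. The joint level of mt-Co1 was 1243, 974, 1153 and 1245 TPM in marker-positive tuft cells of VillinCre;IPMKf/f plate sets 2, 4, 5 and 7, against 7071, 3371, 3160 and 2323 TPM in Krt20 cells of the same sets. In wt plate sets 1, 3 and 6 it was 1093, 968 and 1274 TPM in marker-positive tuft cells, against 5441, 7658 and 4390 TPM in Krt20 cells. The classes did not overlap, and the log2 ratio was -1.96 ± 0.70, a 3.89-fold higher level in the Krt20 class.

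mt-Rnr2 stood at 25689.5, 17931, 20100.5 and 23408 TPM in marker-positive tuft cells of the VillinCre;IPMKf/f plate sets, against 115982, 59342.5, 59266 and 42653 TPM in Krt20 cells. In the wt plate sets it stood at 18203, 17146 and 27256 TPM in marker-positive tuft cells, against 99007, 131742 and 84167 TPM in Krt20 cells. Again every Krt20 value exceeded every tuft value (log2 -1.91 ± 0.68). mt-Rnr1 had a log2 ratio of -1.69 ± 0.83, mt-Co3, a core complex IV subunit, -1.35 ± 0.55 at joint level, mt-Atp6 -0.96 ± 0.47 and mt-Co2, which takes electrons from cytochrome c, -0.90 ± 0.62. All of these were negative in 7 of 7 plate sets.

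Genes of complex I behaved otherwise. mt-Nd1, a membrane subunit near the quinone site, stood at 615.0, 567.03, 597.0 and 555.6 TPM in marker-positive tuft cells of the VillinCre;IPMKf/f plate sets, against 716.9, 497.7, 452.9 and 534.2 TPM in Krt20 cells. In the wt plate sets it stood at 548.6, 639.2 and 777.6 TPM in marker-positive tuft cells, against 583.1, 748.5 and 484.1 TPM in Krt20 cells. The classes overlapped and the sign differed between plate sets (log2 0.11 ± 0.34). The same held for mt-Nd4 (-0.11 ± 0.47) and mt-Nd5 (-0.05 ± 0.35), both proton-pumping membrane subunits, and nearly for mt-Cytb (0.22 ± 0.19, higher in tuft cells in 6 of 7 plate sets). mt-Nd3 at joint level had a log2 ratio of 0.49 ± 0.85 and was higher in tuft cells in 5 of 7 plate sets.

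mt-Nd2, a membrane subunit of complex I, was higher in marker-positive tuft cells. Its level there was 158.5, 119.5, 111.6 and 93.01 TPM in the VillinCre;IPMKf/f plate sets, against 108.9, 55.2, 32.3 and 44.02 TPM in Krt20 cells. In the wt plate sets it was 88.04, 142.8 and 165.8 TPM in marker-positive tuft cells, against 68.3, 108.97 and 52.9 TPM in Krt20 cells. Every plate set had the same sign, although the ranges of the classes overlapped across sets (log2 0.98 ± 0.57). mt-Nd2 was above 0 in 94.2% of marker-positive tuft cells and 67.2% of Krt20 cells. It lies directly upstream of mt-Co1 on the same strand, apart from tRNA genes, and the difference between the classes changed sign between these neighbours.

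**Figure D3:**
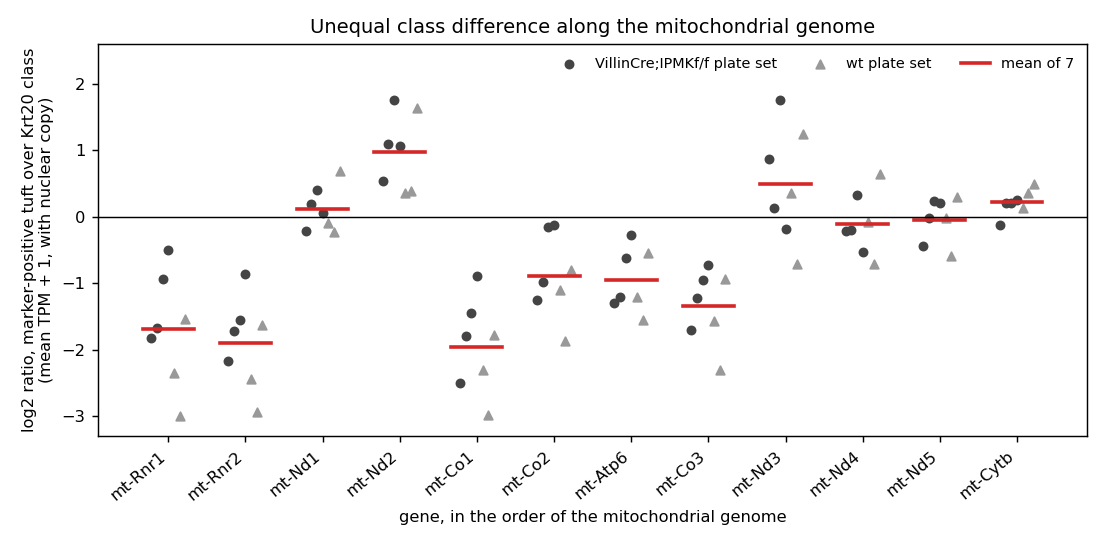
Log2 ratio of mean TPM + 1, marker-positive tuft over Krt20 class, in each plate set (circles VillinCre;IPMKf/f, triangles wt) with the mean of 7 in red, for 12 genes in genome order at joint level where a copy exists; mt-Atp8, mt-Nd4l and mt-Nd6 are left out as sparse. mt-Rnr1, mt-Rnr2 and mt-Co1 to mt-Co3 lie below 0 in all plate sets, mt-Nd2 lies above 0 in all, and mt-Nd1, mt-Nd4 and mt-Nd5 straddle 0.

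Leaving Rn18s-rs5 out of the total moved the median of all genes tested to 0.78 on the log2 scale of tuft over Krt20 (7022 genes then reached 10 TPM), against -0.02 with it, so values are best read relative to that median. Relative to it, mt-Co1 (joint level) was at -1.94 with Rn18s-rs5 and -1.94 without, mt-Rnr2 at -1.88 and -1.95, mt-Co3 at -1.32 and -1.40, mt-Atp6 at -0.93 and -0.99, mt-Nd1 at 0.14 and 0.01, and mt-Nd2 at 1.00 and 1.01. mt-Rnr1, at -1.66 and -1.50, moved most among the 12 better-measured members. The zero line moved more: without Rn18s-rs5, mt-Nd1, mt-Nd4, mt-Nd5 and mt-Cytb had positive log2 ratios in 7 of 7 plate sets. The joint levels of mt-Co2 and mt-Atp6 and the level of mt-Rnr1 then had mixed signs, mt-Rnr1 being lower in tuft cells in 6 of 7 plate sets.

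Within 1 cell, a ratio between members does not depend on the other RNA of the well. The ratios below divide mean TPM over cells, so cells with a high mitochondrial share weigh more. For mt-Co1 to mt-Nd1 in the Krt20 class, the mean over plate sets was 8.08 this way. It was 7.07 as a median over cells and 5.59 in cells with at most 10% mitochondrial TPM. In marker-positive tuft cells these values were 1.87, 1.95 and 1.93. The joint level of mt-Co1 was 1.51 to 2.24 times that of mt-Nd1 in the 7 plate sets of marker-positive tuft cells, against 4.35 to 10.2 times in the Krt20 class and 2.30 to 3.66 times in the rest. For mt-Rnr2 the ratio to mt-Nd1 was 26.8 to 42.1 in marker-positive tuft cells, against 79.8 to 176.01 in the Krt20 class and 63.97 to 114.3 in the rest. Neither ratio overlapped between marker-positive tuft cells and either other class. mt-Co3 to mt-Nd1 was 1.01 to 1.34 against 2.16 to 4.28, and mt-Atp6 to mt-Nd1 was 2.99 to 4.30 against 5.44 to 8.85, in marker-positive tuft cells and the Krt20 class. mt-Nd2 to mt-Nd1 ran the other way, at 0.16 to 0.26 in marker-positive tuft cells and 0.071 to 0.15 in the Krt20 class, again without overlap. The ratios of mt-Cytb, mt-Nd5 and mt-Nd4 to mt-Nd1 overlapped between marker-positive tuft cells and the Krt20 class.

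**Figure D4:**
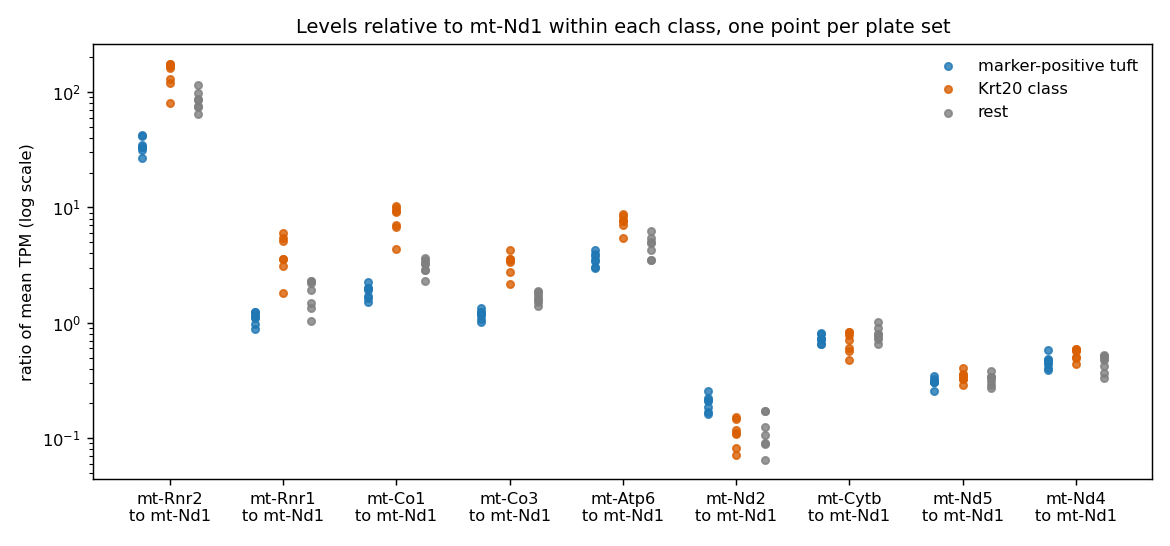
Ratio of the mean TPM of 9 members to that of mt-Nd1 (log scale; joint level where a copy exists), a point per plate set, for marker-positive tuft cells (blue), the Krt20 class (orange) and the rest (grey). The blue and orange points are apart for mt-Rnr2, mt-Rnr1, mt-Co1, mt-Co3, mt-Atp6 and mt-Nd2 and overlap for mt-Cytb, mt-Nd5 and mt-Nd4.

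Summed by complex, the mRNA pool at joint level held 27.2% ± 3.35 complex I transcripts in marker-positive tuft cells and 12.1% ± 1.83 in the Krt20 class (SD, n = 7 plate sets). Complex IV transcripts made up 33.6% ± 2.51 in marker-positive tuft cells and 52.5% ± 5.15 in the Krt20 class, and neither share overlapped between these classes. The ATP synthase share was 32.96% ± 2.92 in marker-positive tuft cells and 32.5% ± 3.98 in the Krt20 class, which overlapped. Without the sparse mt-Atp8, mt-Atp6 made up 31.2% ± 2.37 in marker-positive tuft cells and 31.04% ± 2.22 in the Krt20 class. mt-Cytb, the sole complex III transcript, made up 6.23% ± 0.85 in marker-positive tuft cells and 2.87% ± 0.95 in the Krt20 class. In the rest, complex I transcripts held 19.2% ± 2.88 and complex IV transcripts 41.05% ± 3.58.

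The ratio of ribosomal RNA to mRNA also separated the tuft cells. Each value is the mean over cells of the cell's own ratio, unlike the ratios to mt-Nd1, which divide mean levels. Ribosomal RNA exceeded joint mRNA 3.44, 3.41, 3.60 and 4.43 times in marker-positive tuft cells of VillinCre;IPMKf/f plate sets 2, 4, 5 and 7, against 7.26, 5.97, 6.78 and 7.14 times in Krt20 cells. In wt plate sets 1, 3 and 6 it exceeded mRNA 3.04, 3.32 and 3.405 times in marker-positive tuft cells, against 8.06, 7.52 and 7.47 times in Krt20 cells. The rest, at 6.78 to 8.47, lay with the Krt20 class and not with the tuft cells. No plate set of marker-positive tuft cells reached the lowest value of either other class.

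Cell by cell, the members varied together, and most pairs did so more tightly in the Krt20 class, whether or not their genes differed between the classes. Averaged over the plate sets, the Spearman correlation of mt-Co1 with mt-Rnr2 was 0.72 in marker-positive tuft cells (0.67 to 0.77 over 6 plate sets with at least 10 such cells) and 0.92 in the Krt20 class (0.80 to 0.97 over 7). For mt-Nd1 with mt-Rnr2 it was 0.30 (0.21 to 0.48) and 0.51 (0.23 to 0.90) in the same order of classes. For mt-Nd1 with mt-Cytb, which differed little between the classes, it was 0.56 and 0.75. For mt-Cytb with mt-Co1 it was 0.67 and 0.66. These correlations describe cells that share a plate, a fixed total of TPM and differing depth.

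The nuclear-encoded partners of the same complexes were mostly lower in marker-positive tuft cells too. Of 33 listed subunits, all of which reached 10 TPM in a class, 14 were lower in tuft cells by the rule of size and 0 were higher, and their median log2 ratio was -0.94. Over all 2768 genes tested, 23.6% were lower and 18.3% higher, with a median of -0.02. Without Rn18s-rs5 in the total, 6 of the 33 were lower and 1 was higher, with a median of -0.64 against 0.78 for all genes tested, of which 10.8% were lower and 24.2% higher. Among the 14 were 4 of 5 in complex III (Uqcrc1, Uqcrc2, Uqcrfs1 and Uqcrq), 3 of 7 in complex IV (Cox4i1, Cox5a and Cox6a1), 3 of 8 in ATP synthase (Atp5a1, Atp5d and Atp5o) and 2 of 4 in complex II (Sdhb and Sdhd), which has no mitochondrially encoded subunit. Cox5a, a matrix-facing subunit of complex IV, averaged 67.5 TPM in marker-positive tuft cells (45.8 to 82.97 over plate sets) and 238.5 TPM in Krt20 cells (161.3 to 273.8). Uqcrfs1, the Rieske iron-sulfur protein of complex III, averaged 16.002 TPM in marker-positive tuft cells and 66.2 TPM in Krt20 cells.

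Regulators of mitochondrial RNA were near the limit of this table. Of 17 transcription and DNA maintenance genes found, 1 reached 10 TPM in a class: Polrmt, the mitochondrial RNA polymerase, averaged 12.9 TPM in marker-positive tuft cells (9.59 to 16.3) and 4.46 TPM in Krt20 cells (0.40 to 9.25), and met the rule as higher in tuft cells with a log2 ratio of 1.56. Over all genes tested, 18.3% were higher in tuft cells by this rule. Of 21 RNA processing genes found, 4 reached 10 TPM and 0 met the rule. Slirp, a partner of the mRNA-stabilising protein LRPPRC, averaged 31.8 TPM in marker-positive tuft cells (9.40 to 95.3) and 14.6 TPM in Krt20 cells (0 to 47.1). Fastk, of a family of mitochondrial RNA-binding proteins, averaged 19.02 TPM and 27.5 TPM, and Hsd17b10, a subunit of mitochondrial RNase P, 10.8 TPM and 6.55 TPM, in marker-positive tuft and Krt20 cells. Of 9 biogenesis regulators only Hnf4a reached 10 TPM, at 25.2 TPM in marker-positive tuft cells and 26.8 TPM in Krt20 cells. Esrra stood at 6.06 TPM and 6.03 TPM and Nrf1 at 3.26 TPM and 2.58 TPM in the same order. Ppargc1a, a coactivator of mitochondrial biogenesis named after its values were seen, averaged 0.19 TPM in marker-positive tuft cells (0 to 0.46) and 4.34 TPM in Krt20 cells (1.69 to 6.95), without overlap but under the 10 TPM limit. Pprc1, of the same list, went the other way, also without overlap and under that limit. It averaged 1.12 TPM in marker-positive tuft cells (0.34 to 2.14) and 0.11 TPM in Krt20 cells (0 to 0.26). Ppargc1b averaged 0.84 TPM (0.20 to 1.87) and 2.97 TPM (1.29 to 4.69) in the same order, with overlap.

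The targeted gene went against the genotype labels. Ipmk averaged 6.90, 18.8, 9.63 and 7.57 TPM in wells labelled tuft of VillinCre;IPMKf/f plate sets 2, 4, 5 and 7, against 3.22, 4.31 and 3.31 TPM in wt plate sets 1, 3 and 6. It was thus higher in wells labelled VillinCre;IPMKf/f, without overlap and with a log2 ratio of 1.35. The sources used here do not give the exons flanked by loxP, so reads outside the deleted part may count toward the row. Whether they do, and why the row was higher, was not tested. All genotype comparisons below are between labels.

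Marker-positive tuft cells had like mitochondrial shares under both labels, with 2.57% ± 0.39 in VillinCre;IPMKf/f cells (n = 4 plate sets) and 2.51% ± 0.63 in wt cells (n = 3). The plate-set values overlapped, and the log2 ratio of the means was 0.03. In the Krt20 class the share averaged 7.73% ± 3.52 in VillinCre;IPMKf/f cells and 11.6% ± 2.73 in wt cells, a log2 ratio of -0.59, with plate set 2 (12.8%) inside the wt range. In the rest it averaged 4.09% ± 2.89 and 4.33% ± 0.81, and in all wells labelled tuft it was 4.78%, 2.88%, 3.67% and 3.48% in VillinCre;IPMKf/f plate sets, against 3.78%, 3.87% and 4.45% in wt ones. The plate-set values of the labels overlapped in each of these 4 comparisons. Plate set 2 decided the overlap in 3 of them: without it the VillinCre;IPMKf/f values lay below all wt values for the tuft label (log2 -0.27), the Krt20 class (-0.94) and the rest (-0.70), but not for marker-positive tuft cells (-0.05). With at least 2000 genes per cell the log2 ratio was 0.27 for the tuft label and 0.15 in the Krt20 class, so these directions depended on the depth filter.

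By the rule of size (at least 10 TPM in a genotype, 1.5-fold and no overlap of plate-set values), 0 of 14 members tested were higher or lower in VillinCre;IPMKf/f than in wt wells with the tuft label. Over all 2277 genes tested, 1.93% were higher and 2.11% lower, and the median log2 ratio was -0.11 against -0.15 for the members. No test across replicates could be made. mt-Rnr1 was the only well-measured member whose plate sets did not overlap: it stood at 897, 709, 894 and 780 TPM in VillinCre;IPMKf/f wells labelled tuft, against 972, 1050 and 1052 TPM in wt ones. The VillinCre;IPMKf/f plate-set values were all below the wt ones, but by a log2 ratio of -0.32, under the 1.5-fold limit. The share of all genes whose plate sets did not overlap, whatever their fold, is not given here. The lack of overlap is therefore not read as a result about mt-Rnr1. In marker-positive tuft cells mt-Rnr1 averaged 677 ± 84.6 TPM in VillinCre;IPMKf/f cells and 678 ± 154.6 TPM in wt cells, which overlapped. In the Krt20 class it averaged 1683 ± 676 TPM in VillinCre;IPMKf/f cells and 3380 ± 1023 TPM in wt cells, with overlap in plate set 2.

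In marker-positive tuft cells 1 of 14 members met the rule, where 1.87% of all 2301 genes were higher and 2.82% lower. This was the mt-Co2 row, at 60.1, 42.8, 26.4 and 135.8 TPM in VillinCre;IPMKf/f plate sets, against 18.95, 14.2 and 24.3 TPM in wt ones. That row held 6.50% of the joint signal and was above 0 in 38 cells. At joint level mt-Co2 was 605.6, 427.9, 585.1 and 619.97 TPM in VillinCre;IPMKf/f plate sets, against 497.7, 498.7 and 668.9 TPM in wt ones, with overlap and a log2 ratio of 0.01. Joint levels of mt-Co1, mt-Co2, mt-Atp6 and mt-Co3 and the levels of mt-Rnr1 and mt-Rnr2 differed by log2 ratios between -0.08 and 0.06 in these cells, and mt-Nd1 by -0.17.

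**Figure D5:**
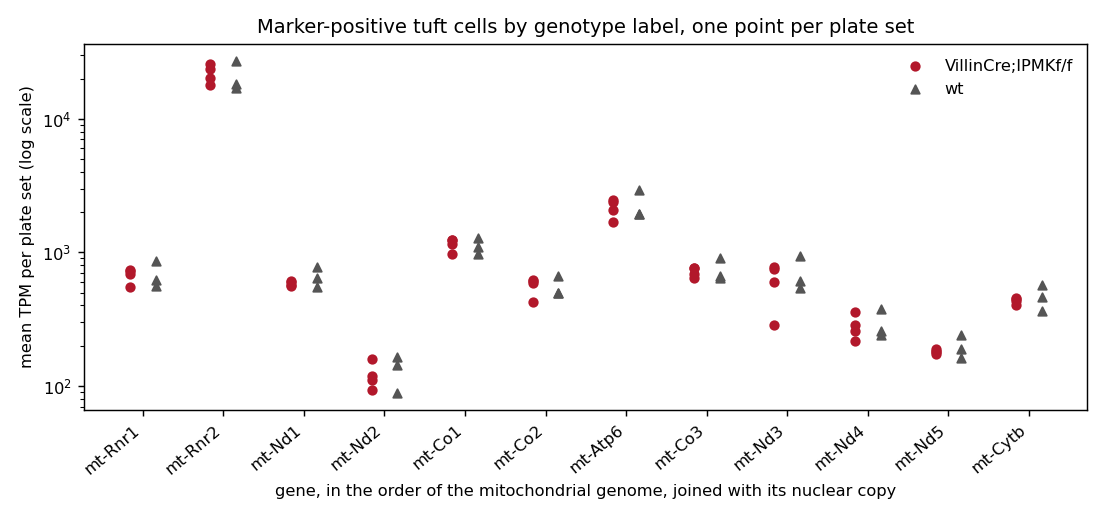
Mean TPM (log scale) of 12 members in marker-positive tuft cells, joint with the copy where one exists, for VillinCre;IPMKf/f plate sets (red circles) and, to their right, wt plate sets (grey triangles); mt-Atp8, mt-Nd4l and mt-Nd6 are left out as sparse. The points of both labels overlap for each of the 12 genes, as for mt-Co1 at 1154 ± 127.05 TPM in VillinCre;IPMKf/f cells and 1112 ± 153.9 TPM in wt cells.

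The ratio of ribosomal RNA to joint mRNA differed slightly between the labels, in opposite directions in the classes. In marker-positive tuft cells it was 3.72 ± 0.48 in VillinCre;IPMKf/f plate sets and 3.25 ± 0.19 in wt ones, a log2 ratio of 0.19, with the plate sets just apart at 3.41 and 3.405. In the Krt20 class it was 6.79 ± 0.58 in VillinCre;IPMKf/f plate sets and 7.68 ± 0.33 in wt ones, a log2 ratio of -0.18, again without overlap. Both differences were small beside that between the classes, and plate set and genotype cannot be told apart. The values are means of the cells' own ratios, and so narrow a gap in marker-positive tuft cells may not hold for ratios of mean levels.

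Among the nuclear partners with the tuft label, 1 of 33 met the rule as lower in VillinCre;IPMKf/f wells, a share near the 2.11% of all genes tested. This was Cox7c, a small complex IV subunit, at 147.5, 209.2, 209.99 and 74.3 TPM, against 469.8, 306.2 and 277.7 TPM in wt plate sets. Of the RNA processing list 4 genes were tested, and 1 met the rule as lower, beside the same 2.11% of all genes. This was Slirp, at 13.3, 14.8, 21.3 and 5.08 TPM in VillinCre;IPMKf/f plate sets, against 94.2, 36.9 and 27.5 TPM in wt ones. In marker-positive tuft cells the plate sets of both overlapped, so neither met the rule, although the log2 ratios of -1.10 for Cox7c and -1.96 for Slirp were close to those of -1.13 and -1.88 with the tuft label. There 1 of 32 partners met the rule as higher, near the 1.87% of all genes tested: Sdha, the flavoprotein of complex II, at 27.4, 23.3, 18.8 and 62.2 TPM in VillinCre;IPMKf/f plate sets, against 12.9, 17.4 and 14.0 TPM in wt ones.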

How the data were processed

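The authors deposited 1 table of TPM per well for 46517 genes and 92 spike-ins; per the submitters' processing notes, Bowtie2 2.4.2, RSEM 1.3.3 and build mm10 were used. The sources used here give no annotation release or settings. Columns sum to 999999.5 to 1000000.6, so TPM keeps no depth and genes above 0 stand in for it. RSEM apportions a read that fits several transcripts by likelihood, so rows of genes with nuclear copies are uncertain. The deposited values of the 38 wells of 1 near-empty plate, kept as a score, were used only to count genes above 0 (at most 6). Wells with late or no Gapdh amplification had been dropped before sequencing, per the labels' protocols. Of the wells not kept, 19 held no value. No identical columns were found, and wells with more than 1 cell were not searched for.

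Cells kept had at least 1000 genes above 0. TPM was averaged per plate set, and plate sets weighed equally. Log2 ratios of gene levels used mean TPM + 1, and those of shares and of ratios between members had nothing added. The rule of size needed 10 TPM and 1.5-fold. All mRNAs and rRNAs are named, tRNAs by count, and of nuclear lists those that met the rule, otherwise the 3 highest. The nuclear subunits of complex I are not reported here one by one. The rule was run on simulated plate-set means with a small fixed spread and planted changes well above 1.5-fold. Its behaviour near the 1.5-fold limit was not tested. Coordinates and sequences come from GENCODE M21 on GRCm38, in which 46005 of 46517 gene IDs were found. Members, lists and thresholds were chosen with earlier results of these data known. Python 3.11.15, pandas 2.3.3, numpy 2.4.6 and scipy 1.17.1 were used.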

Additional observations from a re-analysis of the deposited data

Results flagged for a closer look

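The ratio of ribosomal RNA to joint mRNA moved in opposite directions under the genotype labels in the 2 classes. The log2 ratio of VillinCre;IPMKf/f over wt was 0.19 in marker-positive tuft cells, where each of the 4 VillinCre;IPMKf/f plate sets lay above each of the 3 wt ones, and -0.18 in the Krt20 class, where each lay below. The difference between these effects was not tested, and it was the only one of 14 items compared in this way (the share, this ratio and 12 members) that met the criterion. With rows and copies summed without length weights, the plate sets of the Krt20 class overlapped, at 5.39 to 6.75 in VillinCre;IPMKf/f cells and 6.08 to 6.62 in wt cells. All these values are means of the cells' own ratios, and the lack of overlap in marker-positive tuft cells may not hold for ratios of mean levels. No plate set stood apart from the others among 31 groups of 4 or 7 plate-set values searched.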

How the results depend on the processing

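Of all alternative values computed, 13 moved by more than the plate-set spread or by more than 1.5 times a count, and 0 of the called values changed direction. The log2 ratio of the mitochondrial share of marker-positive tuft over Krt20 cells was -1.80, moved to -1.07 without Rn18s-rs5 and to -0.97 with 13 mRNAs only, and lay between -1.97 and -1.64 with a plate set left out. With at least 2000 genes the VillinCre;IPMKf/f over wt ratio of the share was 0.27 for the tuft label and 0.15 in the Krt20 class, against -0.12 and -0.59; the cause was not tested. The mt-Co1 to mt-Nd1 log2 ratio of tuft over Krt20 was -2.08, and -1.50 in cells with at most 10% mitochondrial TPM. Members lower in tuft cells numbered 4, but 2 without Rn18s-rs5 (mt-Co1 and mt-Rnr2) and 2 with at least 2000 genes, while those higher numbered 1, and 5 without Rn18s-rs5. Over all genes tested, 23.6% were lower in tuft cells and 18.3% higher. Without Rn18s-rs5 these shares were 10.8% and 24.2%, and with at least 2000 genes 24.2% and 15.7%. Members lower in VillinCre;IPMKf/f wells numbered 0, 2 without Rn18s-rs5 (the mt-Co3 and mt-Nd3 rows), and 0 to 1 with a plate set left out (the mt-Nd3 row without plate set 2 or 3). Over all genes tested, 3.20% were lower without Rn18s-rs5, 4.92% without plate set 2 and 3.94% without plate set 3. The mt-Co3 and mt-Nd3 rows held 4.98% and 5.24% of the joint signal with their copies. mt-Rnr2 held 88.003% of the mitochondrial pool, or 91.3% with TPM times length, and mt-Co1 3.17%, or 33.2% of the 13 mRNA rows. No paired analysis was possible because the labels give no replicate numbers shared between genotypes. The ratio of ribosomal RNA to mRNA, at a log2 of -1.03 for tuft over Krt20, lay between -1.09 and -0.97 with a plate set left out. Depth per well is unknown, so a row at 0 may be undetected.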

Other observations

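Wells under 1000 genes, outside the near-empty plate, had a wide range of mitochondrial shares. The mean share was 7.25% in 100 wells with under 50 genes, 14.2% in 57 wells with 50 to under 200 genes, 9.21% in 52 wells with 200 to under 500 genes and 4.56% in 94 wells with 500 to under 1000 genes. The medians of these bands were lower, at 0.58%, 1.83%, 1.89% and 2.18%, and the highest value was 80.8%. A share above 10% was seen in 15, 17, 8 and 10 wells of these bands. No class was given to these wells.

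Within classes, the share ran against the 18S row. Its Spearman correlation with the share of Rn18s-rs5 over cells was -0.30 in marker-positive tuft cells, -0.82 in the Krt20 class and -0.60 in the rest; both are parts of a fixed total. With the number of genes detected it was 0.17, -0.04 and 0.31 in the same order.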
